A study of Mus musculus with 20 samples.

Results

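The 10 genes described here mark the endothelium, the cell layer lining blood vessels, and were measured in antral follicles of mice that drank iodoacetic acid, a by-product of water disinfection. They were Cdh5, Pecam1, Esam, Cldn5, Eng, Tie1, Robo4, Emcn, Egfl7 and Erg. All 10 were found by symbol among the 39253 genes of the count table, and all 10 were among the 17810 genes with enough counts to test. The genes were chosen by symbol with measured values of these same mice known, in which endothelial markers were higher as a group at 10 mg/L. Every contrast that holds the mice at 10 mg/L is therefore given below as a description. The contrasts of 500 mg/L with controls and of the control sets with each other are given with their tests. The direct contrast of the doses was also known when the genes were chosen, and the controls are part of the known contrast at 10 mg/L. These tests are therefore not independent of the choice.

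The animals were female CD-1 mice, an outbred stock. From 40 days of age and for 35 days their drinking water held iodoacetic acid at 10 mg/L (n = 5) or 500 mg/L (n = 5) or none (n = 10). Each library held the 30 to 40 antral follicles, 220 to 400 µm across, dissected from 1 mouse in diestrus at 75 days. The work was done as 2 experiments with a month between them. In experiment 1 the mice at 500 mg/L were run beside control replicates 6 to 10. In experiment 2 those at 10 mg/L were run beside control replicates 1 to 5. Each dose was used in 1 experiment, so a direct contrast between the doses also holds the difference between experiments, and the pair cannot be told apart there. The libraries summed to between 39.9 M and 67.5 M estimated counts (M for mega), in which the 10 genes had 285 to 6366 counts each per mouse. The labelled tissue was checked by its own markers: the granulosa genes Inha and Inhba averaged 5479 and 2375 CPM (counts divided by a library size that trimmed means had adjusted) and the oocyte gene Gdf9 averaged 114 CPM. All 42 other endothelial genes on a separate list were also measured above the filter, led by Cd34 at 72.2 CPM, Cd93 at 64.1 CPM and Thbd at 63.5 CPM.

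In an antral follicle, blood vessels run through the theca, the outer cell layer, and stop at the basement membrane outside the granulosa cells. Endothelial cells hold together through VE-cadherin, PECAM-1, ESAM and claudin 5 at their junctions, and their receptors read ligands from blood, from supporting cells and from neighbouring endothelium. The transcription factor ERG belongs to the ETS family and keeps many endothelial genes active. ETS factors bind DNA around a GGAA core.

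Promoter windows are shown as background on the sequences, and their part in the levels of the 10 genes was not tested. RefSeq windows on build GRCm38.p6, running from 250 bases before to 50 bases after a start site, were available for 7 of the 10 genes in 11 windows. An ETS-type motif, AGGAAG on either strand, was present in 7 of the 11 windows. Across all 32841 windows of the same length 35.4% held it, and 8.62% held it at 2 or more places. Counted by gene, 6 of the 7 had it in at least 1 window. That count has no matching share, because shares were computed by window only and Egfl7 and Erg had several windows each. A form with a CpG, CCGGAAG, was in 0 of the 11 windows against 8.86% of all windows, and the GATA-type motif AGATAA was in 1 of 11 against 11.2%. The motifs do not overlap with each other in their letters except that AGGAAG and CCGGAAG share the run GGAAG. These are matches of letters and were not tested for binding. Below are the 250 bases before the start site of the 3 receptor genes and of Emcn, 5′ to 3′ on the strand of the gene, with the AGGAAG motif or its reverse complement in capitals.
Eng: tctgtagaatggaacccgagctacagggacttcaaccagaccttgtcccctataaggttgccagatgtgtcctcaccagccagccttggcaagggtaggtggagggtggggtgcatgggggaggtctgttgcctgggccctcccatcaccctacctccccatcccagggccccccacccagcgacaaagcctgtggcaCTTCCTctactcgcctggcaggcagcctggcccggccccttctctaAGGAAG
Tie1: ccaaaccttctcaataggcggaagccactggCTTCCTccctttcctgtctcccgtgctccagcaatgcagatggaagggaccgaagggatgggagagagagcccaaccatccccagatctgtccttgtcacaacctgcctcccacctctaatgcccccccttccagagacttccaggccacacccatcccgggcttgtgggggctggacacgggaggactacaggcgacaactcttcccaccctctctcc
Robo4: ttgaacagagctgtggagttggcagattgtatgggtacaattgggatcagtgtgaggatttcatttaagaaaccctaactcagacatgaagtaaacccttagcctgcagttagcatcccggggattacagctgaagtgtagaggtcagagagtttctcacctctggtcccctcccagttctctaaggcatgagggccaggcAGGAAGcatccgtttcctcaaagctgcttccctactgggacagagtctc
Emcn: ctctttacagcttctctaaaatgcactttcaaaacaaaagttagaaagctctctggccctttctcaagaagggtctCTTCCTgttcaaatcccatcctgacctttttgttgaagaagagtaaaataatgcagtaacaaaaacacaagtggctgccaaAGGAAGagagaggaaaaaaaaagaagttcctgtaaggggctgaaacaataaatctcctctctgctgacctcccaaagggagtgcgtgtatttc
The Eng run is chr2:32646345-32646594 on the plus strand, the Tie1 run is chr4:118489850-118490099 on the minus strand, the Robo4 run is chr9:37401722-37401971 on the plus strand and the Emcn run is chr3:137340828-137341077 on the plus strand. In Eng the motif stood 52 and 6 bases before the start, in Robo4 49 bases before it, and in Emcn 174 and 93 bases before it. In Tie1 it stood 219 bases before the start and again 33 bases after it, outside the run shown. The Cldn5 window held 0 matches. Egfl7 had 3 windows, with 3, 2 and 0 matches, and Erg had 3 windows, with 1, 0 and 0 matches. Promoters of Pecam1, Esam and Cdh5 were not used here.

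Of the junction genes, Cdh5 encodes VE-cadherin, the adhesion protein of endothelial adherens junctions. Its level was 90.8, 111, 79.2, 108 and 122 CPM in the 5 mice at 10 mg/L and 95.4, 97.4, 71.2, 96.5 and 108 CPM in the 5 mice at 500 mg/L, against 65.8 to 108 CPM in the 10 controls (median 88.8). Replicates 2 and 5 at 10 mg/L lay above all controls and the other 3 lay among them. The means were 102 ± 17.1 CPM (SD, n = 5) at 10 mg/L, 93.7 ± 13.5 CPM (SD, n = 5) at 500 mg/L and 87.6 ± 13.1 CPM (SD, n = 10) in the controls, so the groups overlapped throughout.

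Pecam1 encodes an adhesion receptor that is also found on platelets and leukocytes. Levels were 48.7, 57.0, 46.4, 60.02 and 58.4 CPM at 10 mg/L and 46.9, 44.8, 38.7, 51.2 and 53.3 CPM at 500 mg/L, with controls between 35.7 and 50.5 CPM (median 45.4). All 5 mice at 10 mg/L exceeded the control median, and replicates 2, 4 and 5 exceeded every control. The mean was 54.1 ± 6.13 CPM (SD, n = 5) against 43.6 ± 4.92 CPM (SD, n = 10) in the controls and 47.0 ± 5.74 CPM (SD, n = 5) at 500 mg/L.

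Esam encodes an immunoglobulin-type adhesion molecule of endothelial tight junctions, which platelets carry too. Its values at 10 mg/L were 27.4, 31.1, 26.9, 37.1 and 38.3 CPM, and at 500 mg/L 25.9, 23.2, 19.9, 23.0 and 26.9 CPM, against 18.4 to 31.3 CPM in controls (median 24.7). Only replicates 4 and 5 at 10 mg/L passed the highest control, while no mouse at 500 mg/L did. Group means were 32.1 ± 5.36 CPM (SD, n = 5) at 10 mg/L, 23.8 ± 2.72 CPM (SD, n = 5) at 500 mg/L and 25.1 ± 4.22 CPM (SD, n = 10) in the controls.

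Cldn5 encodes claudin 5, the sealing claudin of endothelial tight junctions. It measured 30.0, 24.9, 24.9, 38.7 and 37.5 CPM at 10 mg/L and 25.6, 19.1, 19.4, 20.2 and 31.5 CPM at 500 mg/L, with a control range of 17.9 to 27.6 CPM (median 24.97). The mice at 10 mg/L divided into 3 above every control and 2 close to the control median, and at 500 mg/L replicate 5 alone lay above every control. The means were 31.2 ± 6.64 CPM (SD, n = 5), 23.1 ± 5.39 CPM (SD, n = 5) and 24.1 ± 3.45 CPM (SD, n = 10) in the same order.

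Of the receptors, Eng encodes endoglin, the co-receptor through which endothelium reads BMP9 and BMP10. Its level was 67.9, 105, 78.8, 108 and 116 CPM at 10 mg/L and 71.3, 67.2, 58.0, 80.1 and 89.9 CPM at 500 mg/L, and controls ran from 54.6 to 92.8 CPM (median 70.7). Replicates 2, 4 and 5 at 10 mg/L stood above every control, while replicate 1 stood below the control median. Means were 95.2 ± 20.7 CPM (SD, n = 5) at 10 mg/L, 73.3 ± 12.2 CPM (SD, n = 5) at 500 mg/L and 71.2 ± 12.5 CPM (SD, n = 10) in the controls.

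Tie1 encodes the partner receptor of TIE2 in angiopoietin signalling. Values of 30.7, 35.2, 27.1, 37.2 and 35.1 CPM were found at 10 mg/L and of 29.7, 24.6, 18.2, 25.2 and 29.8 CPM at 500 mg/L, with controls between 17.6 and 30.5 CPM (median 26.3). Of the mice at 10 mg/L, 4 lay above every control and replicate 3 lay among them. The means were 33.1 ± 4.09 CPM (SD, n = 5), 25.5 ± 4.76 CPM (SD, n = 5) and 25.1 ± 4.69 CPM (SD, n = 10) for 10 mg/L, 500 mg/L and controls.

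Robo4 encodes a roundabout receptor of vessels that stabilises the endothelial barrier. Its level was 10.8, 15.4, 12.7, 16.6 and 16.1 CPM at 10 mg/L, 11.4, 10.1, 8.30, 9.56 and 13.2 CPM at 500 mg/L, and 8.17 to 15.5 CPM in controls (median 12.4). At 500 mg/L 4 of 5 mice lay below the control median, and at 10 mg/L 4 of 5 lay above it, with overlap in each case. The means were 14.3 ± 2.50 CPM (SD, n = 5), 10.5 ± 1.87 CPM (SD, n = 5) and 11.9 ± 2.39 CPM (SD, n = 10).

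Emcn encodes endomucin, a sialomucin of the endothelial surface coat in capillaries and veins. Its levels were 17.7, 24.4, 16.4, 23.7 and 25.5 CPM at 10 mg/L and 17.5, 16.2, 16.4, 22.2 and 24.3 CPM at 500 mg/L, against 13.7 to 20.5 CPM in controls (median 17.8). At each dose the mice fell into a higher set above every control, of 3 at 10 mg/L and 2 at 500 mg/L, and a lower set within the control range. The means were 21.5 ± 4.16 CPM (SD, n = 5), 19.3 ± 3.70 CPM (SD, n = 5) and 17.3 ± 2.23 CPM (SD, n = 10).

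Egfl7 encodes a protein that endothelial cells secrete into the matrix around vessels. It measured 21.3, 28.5, 22.7, 29.6 and 28.5 CPM at 10 mg/L and 25.05, 22.2, 21.7, 27.1 and 26.7 CPM at 500 mg/L, with controls from 18.7 to 29.5 CPM (median 24.4). Almost all exposed mice lay inside the control range, the exception being replicate 4 at 10 mg/L. Means of 26.1 ± 3.83 CPM (SD, n = 5), 24.6 ± 2.50 CPM (SD, n = 5) and 24.8 ± 3.14 CPM (SD, n = 10) differed by less than 1 SD of any group.

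Erg, the ETS transcription factor, was the least abundant in CPM. Its values were 8.60, 9.17, 7.17, 10.7 and 10.4 CPM at 10 mg/L and 8.69, 8.60, 7.36, 7.64 and 9.86 CPM at 500 mg/L, against 7.33 to 11.0 CPM in controls (median 8.92). No exposed mouse lay above the highest control. The means were 9.21 ± 1.44 CPM (SD, n = 5), 8.43 ± 0.988 CPM (SD, n = 5) and 9.04 ± 1.24 CPM (SD, n = 10).

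**Figure D1:**
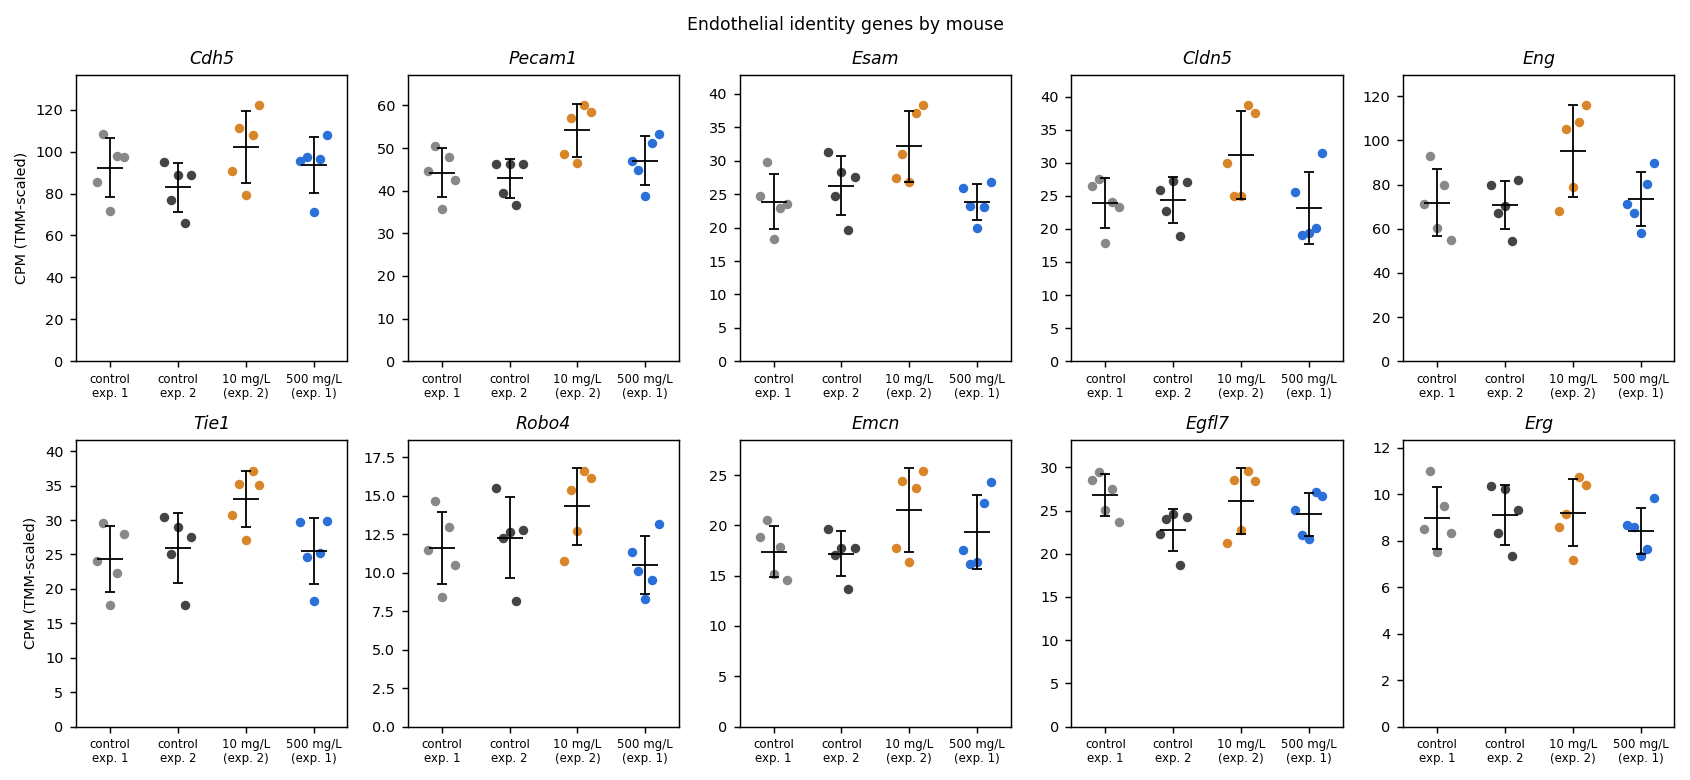
CPM of each gene (y axis, from 0) in each mouse (points), by control set or dose and experiment (x axis); long bars are means and whiskers 1 SD (n = 5 per set). Among the mice at 10 mg/L, replicates 2, 4 and 5 are the 3 highest points in every panel except that of Cldn5, and the points at 500 mg/L lie largely within the control range.

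Set per kilobase of merged exon, which allows levels to be compared between genes, the order over all 20 mice was Cdh5 at 23.2 ± 3.71 CPM per kilobase (SD, n = 20), Eng at 21.8 ± 4.88, Cldn5 at 18.1 ± 4.00, Esam at 14.2 ± 2.81, Egfl7 at 13.4 ± 1.64, Pecam1 at 11.4 ± 1.64, Emcn at 7.29 ± 1.35, Tie1 at 5.98 ± 1.22, Erg at 2.58 ± 0.349 and Robo4 at 2.38 ± 0.508. Between neighbours in that order, only Tie1 and Erg had ranges that did not overlap. Cldn5 exceeded Esam, and Pecam1 exceeded Emcn, in 20 of 20 mice although their ranges overlapped. Cdh5 exceeded Eng in 15 mice, Esam exceeded Egfl7 in 14 and Erg exceeded Robo4 in 15, so these neighbours changed places between mice. Exon lengths came from GENCODE release M21, an earlier annotation than the build named for the counts. The biological coefficient of variation, the spread of a gene between mice of a group beyond counting error, ran from 12.4% in Pecam1 to 20.004% in Robo4, with a median of 16.6% over the 10 genes. Low genes vary more, so each was ranked among other genes within 0.5 log2 units of its own level. The percentile was 87.5 for Eng and 83.4 for Cdh5, from 56.6 to 78.2 for 7 further genes, and 30.5 for Erg, so 9 of the 10 varied more between mice than the middle gene of their level.

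The contrast of 10 mg/L with all 10 controls was known when the genes were picked, so its values and counts are a description, from which nothing is read. All 10 genes had a positive log2 change there, with a median of 0.31 against −0.00039 over all 17810 tested genes, of which the middle 50% lay between −0.09 and 0.11. The receptors Eng (0.42, SE 0.14) and Tie1 (0.40, SE 0.13) and the junction genes Cldn5 (0.37, SE 0.14) and Esam (0.36, SE 0.12) had the highest values. Emcn (0.32, SE 0.12), Pecam1 (0.31, SE 0.09), Robo4 (0.26, SE 0.15) and Cdh5 (0.22, SE 0.12) came next. The lowest were Egfl7 (0.08, SE 0.10) and Erg (0.03, SE 0.11), both within 1 SE of 0. The value of Erg turned negative when replicate 4 (−0.03) or replicate 5 (−0.02) at 10 mg/L was left out. Over all genes edgeR called 0 of the 10 and 0.00561% of those tested at an adjusted p under 0.05. At an unadjusted p under 0.05 it counted 6 of the 10, against 6.22% of all genes. DESeq2 called 0 of the 10, against 0.0273% of the genes to which it gave an adjusted p.

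Against the 5 controls of their own experiment the mice at 10 mg/L also had a median log2 change of 0.31, with 10 positive values from 0.02 (Erg) to 0.43 (Eng). Egfl7 stood higher in this comparison, at 0.20 (SE 0.11) where all controls gave 0.08. Here edgeR called 0 of the 10 (0% of all tested genes). At an unadjusted p under 0.05 stood 7 of the 10, where 6.45% of all genes did. DESeq2 called 0 of the 10 (0.137% of genes with an adjusted p). Pecam1 was the 1 gene in which every exposed mouse exceeded every control of experiment 2, by a narrow margin of 46.4 CPM against 46.3 CPM. Over all genes 0.5% showed that pattern in that direction. Nothing is read from these counts, because the choice of genes fixed their direction.

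The authors' deposited table, whose model is not given in the sources used here, made more calls for 10 mg/L against control. These come from the same mice and are a description too. In it Eng was 1.31-fold higher (adjusted p = 0.0141), Emcn 1.22-fold (adjusted p = 0.0231), Pecam1 1.23-fold (adjusted p = 0.0336) and Esam 1.27-fold (adjusted p = 0.0499). These were 4 of the 10 genes, where 111 of all 18169 genes in the authors' deposited table were under 0.05. The fold changes of the other 6 in the authors' deposited table ran from 1.00 in Erg to 1.32 in Tie1, with adjusted p from 0.0968 in Cldn5 to 0.986 in Erg.

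At 500 mg/L the levels of the endothelial genes lay near those of the controls. Their median log2 change against all 10 controls was 0.0044, beside −0.00014 over all tested genes, and 5 values were positive and 5 negative. Emcn had the highest, 0.16 (SE 0.12; edgeR adjusted p = 0.759), followed by Pecam1 at 0.11 (SE 0.09; adjusted p = 0.780) and Cdh5 at 0.10 (SE 0.12; adjusted p = 0.869). Robo4 had the lowest, −0.19 (SE 0.15; edgeR adjusted p = 0.772), followed by Erg at −0.10 (SE 0.11; adjusted p = 0.858). Esam (−0.08), Cldn5 (−0.06), Egfl7 (−0.01), Tie1 (0.02) and Eng (0.04) lay within 1 SE of 0. By edgeR 0 of the 10 passed over all genes, where 0.0112% of tested genes did, and 0 of the 10 reached an unadjusted p under 0.05, where 8.69% of all genes did. DESeq2 called 0 of the 9 genes to which it gave an adjusted p, where it called 0.832% of all genes with one. The authors' deposited table had 0 of the 10 under 0.05, where 229 of all 18169 genes were.

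These tests left room for moderate changes. Taking 2 SE to each side, the fold change of Robo4 at 500 mg/L lay between 0.714 and 1.08, that of Emcn between 0.942 and 1.33, that of Eng between 0.849 and 1.25 and that of Tie1 between 0.841 and 1.23. With the 5 controls of experiment 1 alone the median log2 change was 0.0094, again with 5 positive and 5 negative values, from −0.14 in Robo4 to 0.15 in Emcn. There 0 of the 10 were called by edgeR (0% of all genes) or DESeq2 (0.0171% of genes with an adjusted p). The adjusted p ran from 0.965 to 0.999 by edgeR, and 0 of the 10 were under an unadjusted 0.05 where 5.19% of all genes were.

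**Figure D2:**
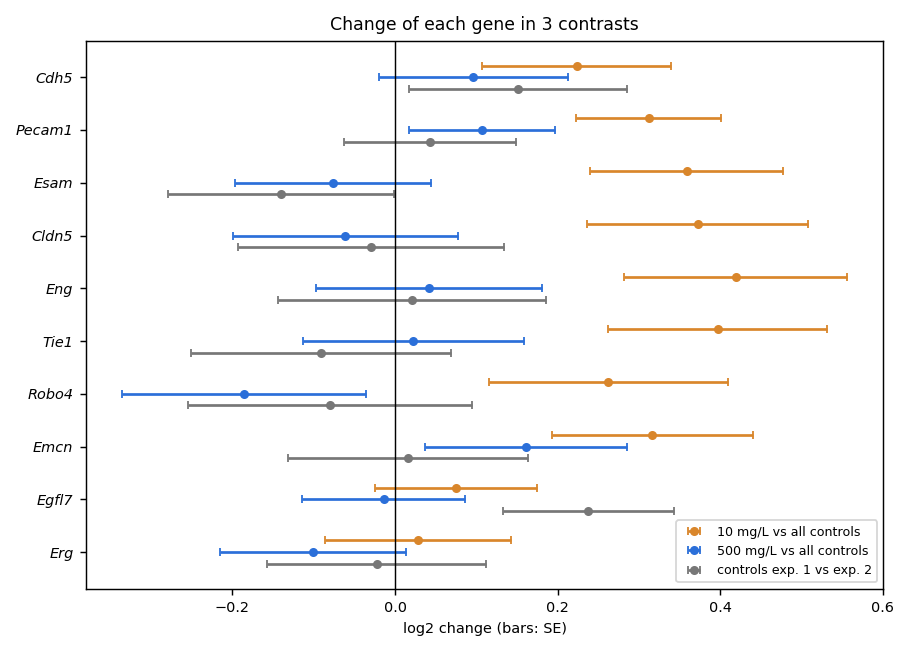
log2 change of each gene (x axis) with its standard error (bars) in 3 contrasts: 10 mg/L against all controls (orange), 500 mg/L against all controls (blue) and controls of experiment 1 against those of experiment 2 (grey). The orange points run from 0.03 to 0.42, the blue from −0.19 to 0.16 and the grey from −0.14 to 0.24; the first 2 contrasts share their controls.

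Unexposed mice of the 2 experiments offer a contrast free of iodoacetic acid. Their median log2 difference over the 10 genes, experiment 1 minus experiment 2, was −0.0029, beside 0.00094 over all genes, with 5 values on each side of 0. Egfl7 differed most: the controls of experiment 1 averaged 26.8 ± 2.43 CPM (SD, n = 5) and those of experiment 2 averaged 22.8 ± 2.43 CPM (SD, n = 5). Its log2 difference of 0.24 (SE 0.11; edgeR p = 0.0352) did not pass over all genes (adjusted p = 0.468), and the other 9 had adjusted p from 0.776 to 0.985. So 0 of the 10 were called by edgeR, against 0.157% of all genes, and 1 had an unadjusted p under 0.05, against 9.78% of all genes. DESeq2 also called 0 of the 10, where it called 1.13% of genes with an adjusted p.

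Set directly against each other, the doses are described only, since this contrast was known when the genes were chosen. All 10 log2 differences of 500 minus 10 mg/L were negative, with a median of −0.29 (all genes −0.0017). They ran from −0.45 (SE 0.17) in Robo4, −0.43 (SE 0.14) in Esam and −0.43 (SE 0.16) in Cldn5 to −0.09 (SE 0.12) in Egfl7. By edgeR 0 of the 10 were called (0.0112% of all genes) and 5 had an unadjusted p under 0.05 (10% of all genes). DESeq2 called 0 of the 10 (1.07% of genes with an adjusted p). In the authors' deposited table Esam was 1.33-fold lower at 500 than at 10 mg/L (signed fold −1.33, adjusted p = 0.0482) and Eng 1.25-fold lower (signed fold −1.25, adjusted p = 0.0266). These were 2 of the 10 genes, where 289 of all 18169 genes were under 0.05 there.

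Once each dose was taken against its own controls, the difference between the dose effects was again negative in 10 of 10 genes, with a median of −0.29 (all genes 0.0084). Cldn5 and Eng were at −0.40 (SE 0.23 each) and Erg at −0.11 (SE 0.19). Egfl7 was the 1 gene with an unadjusted p under 0.05, at −0.33 (SE 0.15), where 5.41% of all genes stood. For this difference edgeR called 0 of the 10 (0% of all genes), and DESeq2 called 0 (0.0737% of genes with an adjusted p). These counts too are a description, since the contrast holds the mice at 10 mg/L.

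Within every group the same mice were high or low for most of the 10 genes. Among controls, replicate 4 had the lowest level of 7 genes and replicate 8 of the other 3, while replicate 7 had the highest level of 7 genes and replicate 1 of the other 3. At 10 mg/L replicate 3 was lowest in 7 genes and replicate 1 in 3, and replicates 4 and 5 shared the highest values, in 6 and 4 genes. At 500 mg/L replicate 3 was lowest in 8 genes and replicate 5 highest in 9. The summed level of the 10 genes ran from 261 to 414 CPM in controls (median 350), from 342 to 488 CPM at 10 mg/L (median 442) and from 279 to 413 CPM at 500 mg/L (median 357). Replicates 2, 4 and 5 at 10 mg/L, at 442, 470 and 488 CPM, lay above every other mouse, and replicates 1 and 3, at 354 and 342 CPM, lay near the middle of the controls.

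**Figure D3:**
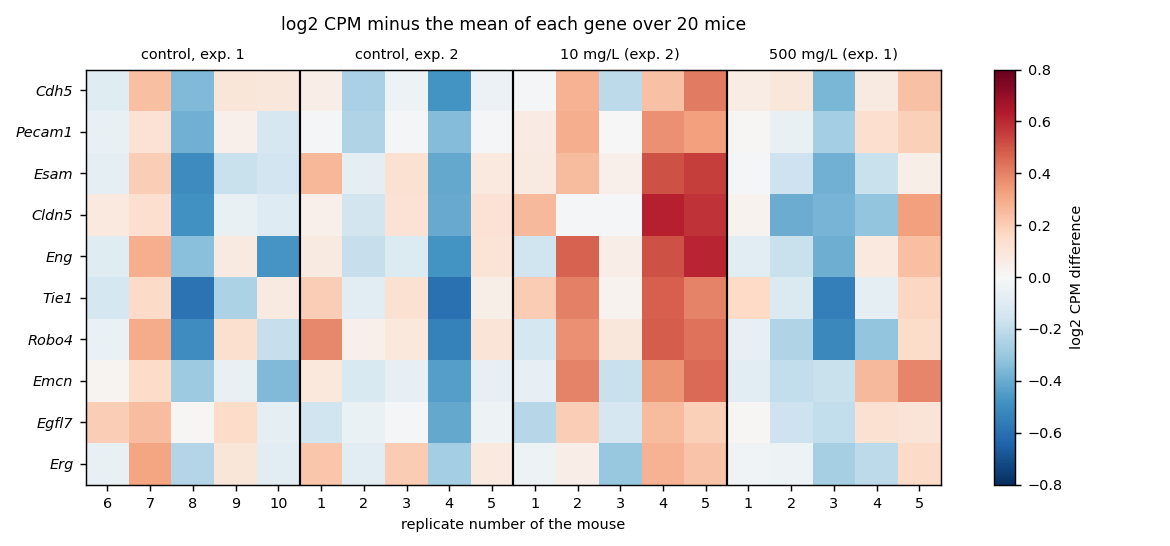
log2 CPM of each gene (rows) in each mouse (columns, by replicate number within its set) minus the mean of that gene over all 20 mice; red is above and blue below that mean. Columns are mostly 1 colour from top to bottom: control replicates 4 and 8 and replicate 3 at 500 mg/L are blue, and replicates 2, 4 and 5 at 10 mg/L are red.

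Across the 20 mice the log2 CPM of all 45 pairs of the 10 genes correlated positively, with Pearson's r from 0.50 (Tie1 and Egfl7) to 0.93 (Esam and Tie1) and a median of 0.76. The points of each pair share library, dissection and scaling, so these values are a description. A first principal component held 78.8% of the variance of the 10 genes. After the mean of each control set and each dose had been subtracted, r ran from 0.61 to 0.92 with a median of 0.82, and the first component held 82.4%, so the common movement was present within sets as well. Each gene was also set against the mean of the other 9: Pecam1 was closest to it (r = 0.93) and Egfl7 farthest (r = 0.68). In whole tissue, fewer cells of a type and less RNA per cell cannot be told apart.

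**Figure D4:**
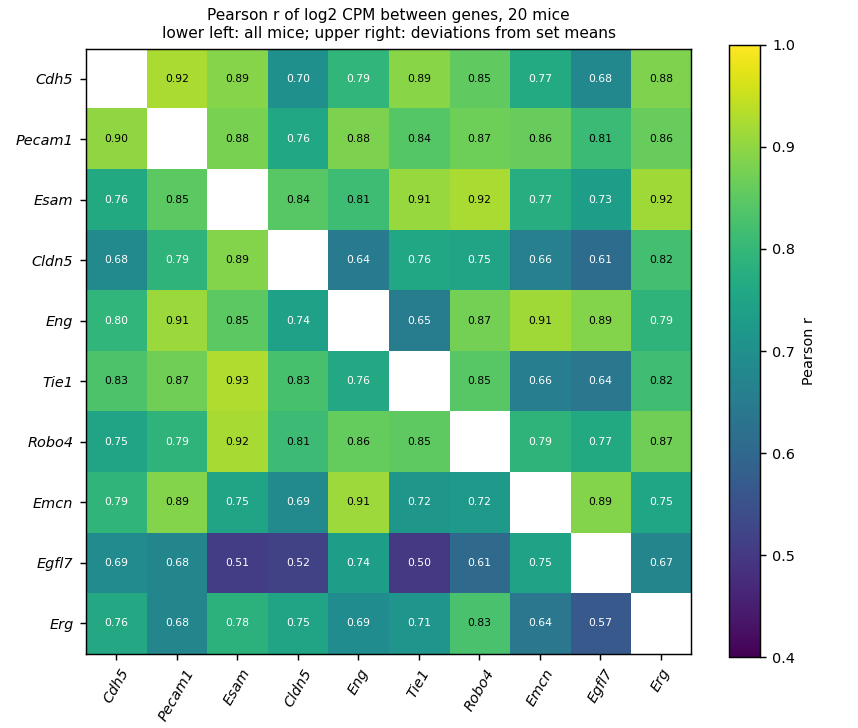
Pearson's r of log2 CPM between each pair of the 10 genes over 20 mice; below the diagonal from all mice, above it from deviations from the mean of each control set and dose. The lowest values, 0.50 to 0.52 below the diagonal, belong to Egfl7 with Tie1, Esam and Cldn5, and the highest, 0.93, to Esam with Tie1.

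Erg and Egfl7 were set against the mean log2 CPM of the other 8 genes, a division made after their values had been seen and so given with no test. Relative to those 8, Erg was at −1.77 ± 0.0694 in controls (SD, n = 10; range −1.88 to −1.68), at −2.07 ± 0.0859 at 10 mg/L (SD, n = 5; range −2.15 to −1.94) and at −1.88 ± 0.121 at 500 mg/L (SD, n = 5; range −2.04 to −1.76). The mice at 10 mg/L did not overlap with the controls, and those at 500 mg/L overlapped with both. Nothing is read from this, because the other 8 genes were picked with values of the mice at 10 mg/L known. Erg itself had a log2 change of 0.03 (SE 0.11) at 10 mg/L against all controls. How many other genes would separate in the same way was not computed. Relative Egfl7 was at −0.574 ± 0.0790 at 10 mg/L (SD, n = 5), −0.338 ± 0.125 at 500 mg/L (SD, n = 5), −0.187 ± 0.158 in controls of experiment 1 (SD, n = 5) and −0.443 ± 0.149 in controls of experiment 2 (SD, n = 5). For Egfl7 the control sets thus lay about as far apart as the doses did.

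Among the 14284 tested genes with a mean of at least 1 CPM that are not in the set, likeness was measured as Pearson's r over the 20 mice with the mean standardised profile of the 10 genes. The 10 most alike were Mmrn2 (r = 0.94), Scarf1 (0.92), Tek (0.91), Arap3 (0.91), Adcy4 (0.89), Tm4sf1 (0.89), Stab1 (0.89), Flt1 (0.89), Pde2a (0.89) and Ushbp1 (0.88). Mmrn2 encodes an endothelial matrix protein, Tek the angiopoietin receptor TIE2, and Flt1 the VEGF receptor VEGFR1. Of these 10, 3 were on the lists of other endothelial genes, as were 7 of the top 50, while such genes made up 0.462% of those ranked (66 genes). Over these 66 the median r was 0.57 and 60 were positive, beside a median of −0.060 over all genes. The 4 endothelial-list genes with the lowest r, singled out after their values were seen, ran the other way: Foxo1 at −0.57, She at −0.49, Hey2 at −0.45 and Selp at −0.38. Foxo1, a transcription factor known from granulosa cells as well as endothelium, averaged 1213 CPM.

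**Figure D5:**
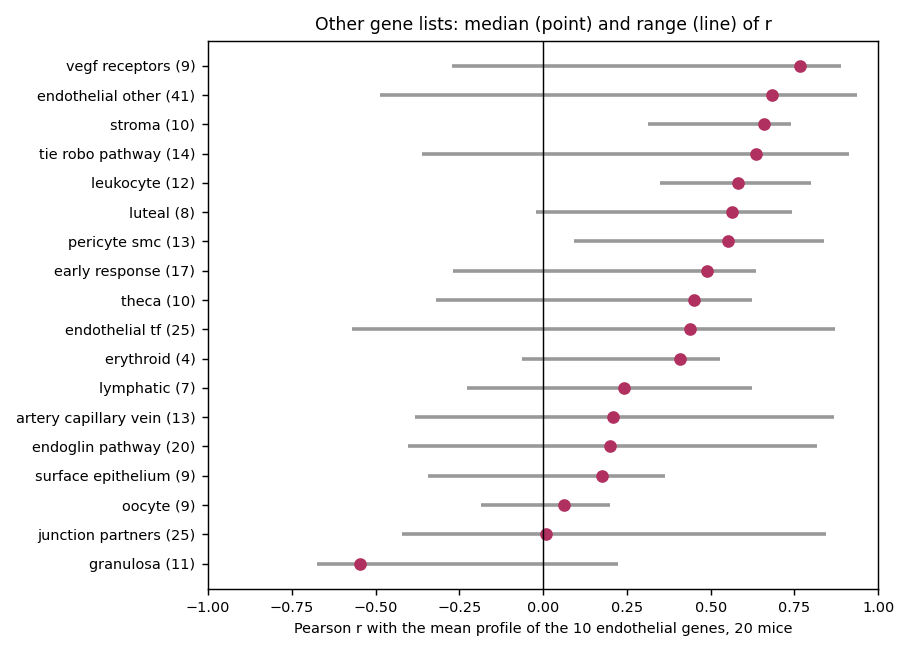
Pearson's r over 20 mice between single genes and the mean profile of the 10 endothelial genes, by gene list; points are list medians, lines run from the lowest to the highest gene, and the number of genes is in brackets. VEGF and receptor genes have the highest median (0.77) and granulosa genes the lowest (−0.55).

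Markers of several other cell types moved with the endothelial genes from mouse to mouse, and others did so little or not. Median r with the endothelial profile was 0.66 over 10 stromal genes, 0.58 over 12 leukocyte genes and 0.56 over 8 luteal genes. It was 0.55 over 13 pericyte and smooth muscle genes, 0.49 over 17 early-response genes and 0.45 over 10 theca genes. Lower values were 0.41 over 4 red cell genes, 0.18 over 9 surface epithelium genes and 0.06 over 9 oocyte genes. Granulosa genes went the other way, at −0.55 over 11 genes. Replicates 2, 4 and 5 at 10 mg/L ranked 1, 8 and 4 of the 20 mice in summed stromal markers, 3, 4 and 2 in early-response genes and 12, 17 and 20 in granulosa markers. Control replicate 7 ranked 4 in the 10 endothelial genes, 2 in stroma and 1 in theca, leukocyte and luteal markers. Replicate 5 at 500 mg/L ranked 5 in the endothelial genes, 1 in pericyte markers, 1 in early-response genes and 19 in granulosa markers. The same mouse ranked 16 in theca markers and 16 in luteal markers. The part of these other markers in the endothelial levels was not tested.

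The same lists were counted in the group contrasts. At 10 mg/L against all controls 8 of 14 pericyte genes were positive (median 0.04; Acta2 at 0.00, Myh11 at 0.21 and Tagln at −0.16), 8 of 10 stromal genes (median 0.06), 7 of 10 theca genes (median 0.07) and 4 of 14 leukocyte genes (median −0.18; Cd74 at −0.20 and Lyz2 at −0.44). Against the controls of experiment 2 the counts were 10 of 14 pericyte (median 0.04), 7 of 10 stromal (0.03) and 5 of 10 theca genes (0.02). Leukocyte genes had the opposite sign there, with 11 of 14 positive (median 0.21; Cd74 at 0.33 and Lyz2 at −0.18), and 13 of 14 were positive in experiment 1 minus experiment 2 among the controls (median 0.60). Single mice turned the leukocyte medians too: without replicate 3 at 10 mg/L the first was 0.0145, and without replicate 4 the second was −0.00282. The pericyte, stromal and theca medians at 10 mg/L fell below 0 in both comparisons without replicate 2 at that dose, to values between −0.0327 and −0.14. Summed pericyte markers ran from 621 to 1250 CPM in controls, from 633 to 1270 CPM at 10 mg/L and from 573 to 1359 CPM at 500 mg/L, and summed stromal markers from 1101 to 2739, 1125 to 2814 and 978 to 2549 CPM. Summed leukocyte markers lay between 102 and 324 CPM in controls, 74.1 and 211 CPM at 10 mg/L and 81.1 and 188 CPM at 500 mg/L. Platelet markers, which bear on Pecam1 and Esam, summed to 1.09 to 3.04 CPM over all mice, where Pf4, a chemokine of platelet granules, averaged 0.600 CPM and Gp9 was at 0 in 15 of the 20 mice. Red cell genes were positive in 5 of 5 at both doses, with medians of 0.64 and 0.74 against all controls and 0.40 and 1.11 against own controls. Without replicate 2 at 10 mg/L the medians of that dose were 0.356 and 0.165, and without replicate 4 at 500 mg/L those of that dose were 0.43 and 0.712. Between the control sets 0 of 5 were positive (median −0.38). Red cell genes summed to 17.0 to 75.7 CPM in controls, 25.5 to 113 CPM at 10 mg/L and 31.0 to 133 CPM at 500 mg/L. By edgeR 0 genes of these lists passed in any contrast. At 10 mg/L 0 of them had an unadjusted p under 0.05 against all controls (6.22% of all genes), and against own controls 2 theca genes and 1 leukocyte gene did (6.45% of all genes). DESeq2 called 1 of them, the theca gene Insl3, between the control sets. Their part in the levels at 10 mg/L was not tested.

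The early-response genes, which switch on within minutes of a stimulus, were positive in 16 of 17 at 10 mg/L (median 1.02) and in 16 of 17 at 500 mg/L (median 1.04). Their sums lay between 1220 and 2137 CPM in controls and were 1580, 2798, 1522, 2633 and 3989 CPM at 10 mg/L and 1625, 1430, 1303, 1173 and 7526 CPM at 500 mg/L. Of the 5 mice at 500 mg/L, only replicate 5 lay above the controls. Without it, an alternative chosen after seeing the data, 3 of 18 genes were positive at 500 mg/L and the median was −0.107. By edgeR 0 of them passed at either dose, with 12 and 10 at an unadjusted p under 0.05 (6.22% and 8.69% of all genes), and DESeq2 called 1, Fosb, at 500 mg/L. The 10 endothelial genes had medians of 0.31 and 0.0044 beside these, and the part of early-response genes in their levels was not tested. Luteal genes were positive in 8 of 8 at 10 mg/L, with a median of 0.47 against all controls and 1.14 against own controls, where 3 of 8 had an unadjusted p under 0.05 (6.45% of all genes). They were also positive in 7 of 8 between the control sets (median 0.95). Single mice weighed on these medians: without replicate 4 at 10 mg/L the first 2 were 0.0984 and 0.629, and without control replicate 7 the last was 0.183. Some luteal genes are also on the theca list. The part of luteal genes in the endothelial levels was not tested.

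The wider endothelial lists were counted in the same contrasts, beside 49.9% of all tested genes with a positive value at each dose. These lists, and the vessel and pathway lists below, were chosen with earlier results of these mice known. Endothelial markers were known to be higher at 10 mg/L, so the counts at that dose are a description and no separate support. Of 42 other endothelial genes 38 were positive at 10 mg/L (median 0.19), among them the surface proteins Cd34 (0.15, SE 0.11) and Cd93 (0.37, SE 0.14) and the thrombin-binding Thbd (0.29, SE 0.26). At 500 mg/L 28 of the 42 were positive against all controls (median 0.04, or −0.00601 without replicate 5). Endothelial transcription factors, the companions of Erg, were positive in 20 of 27 at 10 mg/L (median 0.14) and 15 of 27 at 500 mg/L (median 0.05). The most abundant were Foxo1 (−0.13, SE 0.14 at 10 mg/L), the hypoxia factor Epas1 (0.11, SE 0.11) and the Notch target Heyl (0.28, SE 0.24). By edgeR 0 genes of these lists passed over all genes in any contrast. At an unadjusted p under 0.05 in the first contrast stood 9 of the 42 and 4 of the 27, where 6.22% of all genes did. Against the controls of experiment 2, 38 of 42 (median 0.23) and 23 of 27 (median 0.18) were positive at 10 mg/L. Against those of experiment 1, 21 of 42 (median 0.0067) and 14 of 27 (median 0.04) were positive at 500 mg/L. DESeq2 called 1 gene of the 2 lists, the ETS factor Fli1, between the control sets.

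Genes of single vessel types were counted in the same way. The list of artery, capillary and vein genes, some of which are on the lists above too, was positive in 12 of 16 at 10 mg/L against all controls (median 0.08), in 10 of 16 against own controls (median 0.04, or −0.0261 without replicate 1 at 10 mg/L) and in 2 of 16 between the control sets (median −0.11). Its most abundant genes were Sema3g (−0.02, SE 0.17), a semaphorin of arteries, the fatty acid receptor Cd36 (0.02, SE 0.22) and Ephb4 (−0.04, SE 0.08), an ephrin receptor of veins. At 500 mg/L 10 of 16 were positive (median 0.05, or −0.0555 without replicate 5). Rgcc, a cell cycle regulator on this list, was lower at 500 mg/L than in all controls by DESeq2 (adjusted p = 0.0495) but did not pass in edgeR (log2 change −0.74, SE 0.21; adjusted p = 0.325). Against own controls it was at −0.61 (SE 0.24; edgeR adjusted p = 0.954) and DESeq2 did not call it. Between 500 and 10 mg/L DESeq2 called it as well (−0.96, SE 0.24; adjusted p = 0.0188 by DESeq2 and 0.204 by edgeR). Lymphatic genes were positive in 5 of 7 at 10 mg/L against all controls (median 0.12) and in 6 of 7 against own controls (median 0.24). At 500 mg/L 7 of 7 were positive against all controls (median 0.21, or 0.029 without replicate 5). Against own controls 4 of 7 were positive at that dose (median 0.02). Between the control sets 5 of 7 were positive (median 0.41). The lymphatic chemokine gene Ccl21a was at 0.12 (SE 0.16), the receptor gene Flt4 at 0.18 (SE 0.11) and Pdpn, the podoplanin gene, at −0.31 (SE 0.32) at 10 mg/L. At that dose 2 of the 16 and 0 of the 7 had an unadjusted p under 0.05 against all controls (6.22% of all genes). By edgeR 0 genes of both lists passed in any contrast, and Rgcc was the only one that DESeq2 called.

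Some genes of the VEGF list and of the Tie1 and Robo4 list below are also on the endothelial or lymphatic lists above, so the counts share genes. Ligands and receptors of the VEGF family were positive in 10 of 10 at 10 mg/L (median 0.20) and in 6 of 10 at 500 mg/L (median 0.05). Vegfa, the main growth factor of vessels, was at 0.26 (SE 0.16) and −0.01 (SE 0.16), and the co-receptors Nrp1 and Nrp2 were at 0.24 (SE 0.21) and 0.15 (SE 0.25) at 10 mg/L. Partners of Tie1 and Robo4 in the angiopoietin and Slit pathways were positive in 10 of 15 (median 0.05), with Angpt2, the vessel-destabilising angiopoietin, at 0.26 (SE 0.23), the phosphatase gene Ptprb at 0.33 (SE 0.14) and Robo1 at −0.07 (SE 0.20). Partners of endoglin were positive in 12 of 20 (median 0.08). The type II receptor gene Bmpr2 was at −0.16 (SE 0.12) at 10 mg/L and 0.26 (SE 0.12) at 500 mg/L against all controls. Against own controls Bmpr2 was at −0.05 (SE 0.14) and 0.16 (SE 0.14), and between the control sets at 0.22 (SE 0.14). The genes of the receptor Tgfbr1 and the mediator Smad4 were at −0.10 (SE 0.10) and 0.01 (SE 0.06) at 10 mg/L. Intracellular partners of the junction proteins, most of which any epithelium expresses, were positive in 17 of 25 (median 0.02), with beta-catenin, Ctnnb1, at −0.02 (SE 0.05) and p120 catenin, Ctnnd1, at 0.07 (SE 0.07). In these 4 pathway lists edgeR and DESeq2 called 0 genes in any contrast, and at 10 mg/L by edgeR 0 of 10, 2 of 15, 2 of 20 and 1 of 25 genes had an unadjusted p under 0.05, beside 6.22% of all genes. Against own controls the positive counts at 10 mg/L were 10 of 10 (median 0.23), 8 of 15 (0.12), 12 of 20 (0.10) and 13 of 25 (0.00).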

How the data were processed

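RNA-seq libraries of 20 mice were analysed from files the authors deposited. Per the labels' protocols, poly(A) RNA gave stranded libraries read for 101 cycles from 1 end. The deposited values are estimated counts per gene, not scaled; the submitters' processing notes name Salmon 1.2.0, FastQC 0.11.8, edgeR, limma, R 4.1.2 and GRCm39. The sources used here do not name the annotation or the summing to genes. Per the file headers, a second deposited table holds the authors' average log2 expression, raw and adjusted p-values and signed fold changes.

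Counts were rounded and fitted with edgeR 4.0.16 (R 4.3.3): its expression filter by group, TMM scaling and a robust quasi-likelihood model over all 20 mice, two-sided, with Benjamini-Hochberg adjustment over 17810 genes at 0.05. One model had a mean per group, as the submitters combined the controls, and another a mean per group in each experiment, read from the column headers. Intervals are 2 SE. Correlations used log2 CPM with a prior count of 2. The script was tested on simulated data. Within groups, the chi-square per gene between libraries lay between 20.9 and 143 over 65 pairs, so none was a copy.

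The members and lists were chosen with earlier results of these data known. Named besides the members were the 3 most abundant tested genes of a list, the 10 genes most like the members and any list gene that edgeR or DESeq2 called; others were chosen after their values were seen. Alternatives were DESeq2 1.42.0, its size factors, library totals, other filters, only the groups compared, a replicate block, Spearman's rho, and each mouse left out; for the other lists the last was added after seeing the data. Spread between mice, not depth, limited precision.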

Additional observations from a re-analysis of the deposited data

How the results depend on the processing

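No alternative called any of the 10 genes in any contrast, by edgeR or DESeq2. All 10 genes kept their direction under every alternative for 500 against 10 mg/L and for the difference between the dose effects, and 9 did for 10 mg/L against all or its own controls; Erg ran from −0.031 to 0.113 and from −0.0427 to 0.103 there as mice were left out. Leaving out each mouse in turn, the median log2 change of the 10 genes ran from 0.266 to 0.388 (10 mg/L, all controls), 0.243 to 0.390 (own controls), −0.355 to −0.215 (500 against 10 mg/L), −0.372 to −0.208 (difference of effects), −0.0460 to 0.0712 (500 mg/L, all controls), −0.0687 to 0.0882 (own controls) and −0.0876 to 0.0577 (control sets). Values near 0 changed sign with single mice. At 500 mg/L against all controls, Cldn5 ran from −0.199 to 0.000913, Eng from −0.0436 to 0.115, Tie1 from −0.0404 to 0.123 and Egfl7 from −0.0573 to 0.027. With own controls, Cdh5 ran from −0.0541 to 0.107, Esam from −0.0834 to 0.0889, Cldn5 from −0.185 to 0.0154, Eng from −0.0545 to 0.141 and Tie1 from −0.0247 to 0.169. Between control sets, Pecam1 ran from −0.00894 to 0.109, Cldn5 from −0.106 to 0.056, Eng from −0.0892 to 0.105, Tie1 from −0.201 to 0.00202, Robo4 from −0.194 to 0.0149, Emcn from −0.0538 to 0.0765 and Erg from −0.107 to 0.0327. Deviations of same-numbered mice from their group means correlated at r from −0.17 to 0.23 (15 pairs, 3 over 0.1). Differently numbered mice were not compared, so these values cannot decide whether the numbers pair mice. With a replicate block 0 genes were called and the median at 10 mg/L was 0.296, while Tie1 and Egfl7 at 500 mg/L turned to −0.0334 and 0.106. No exposed mouse shares a replicate number with the controls of experiment 1, so those controls added nothing to the block contrasts. At 500 mg/L the block therefore set mice of experiment 1 against controls of experiment 2. Both turned values thus also hold the difference between experiments. The block could not be fitted for 500 mg/L with own controls, the control sets or the difference of effects. Of the 50 genes most like the members, 7 were on the endothelial lists by Pearson's r and 4 by Spearman's rho, which shared 5 of the 10 most like.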
